A study of Mus musculus with 8 samples.

Results

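The regions described here are places of the mouse genome where all 4 GLI peak lists of the series had a peak. They were found by pooling the 4 lists, joining peaks that overlapped by at least 1 bp into union regions, and keeping the regions that held a peak of each list. The rule kept 598 of 142067 union regions (0.421%, exact 95% interval 0.388 to 0.456%). The regions were thus chosen by the authors' peak calls themselves, and their scores, widths and overlaps are given as a description, with no test.

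Hedgehog signalling ends in the GLI proteins, which bind DNA through zinc fingers. When a Hedgehog ligand relieves Patched from holding back Smoothened, GLI2 is known as the main first activator, and GLI1 is a target gene of the pathway that adds to its output. Both recognise closely similar DNA sequences, so the same site can in principle be bound by either. In ChIP-seq, places common to unrelated libraries can also be stretches that gather reads in any library, such as satellite repeats of which a genome assembly holds too few copies. Mouse chromosomes carry their centromere, and the satellite DNA around it, at the end where coordinates begin.

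F1-2.1, the line used, is a female line of mouse ES cells. It carried a Tet-on transactivator (rtTA) and a stable transgene for GLI1-3xFLAG or GLI2-3xFLAG under tetracycline response elements. Both groups were undifferentiated (day 0), had grown on irradiated feeder fibroblasts, and had received 1 µg/mL doxycycline and 100 nM SAG, a Smoothened agonist, for 72 hours. Each factor had 2 anti-FLAG ChIP libraries, called biological replicates in the labels, and 2 input libraries. The bound proteins were thus tagged, induced from a transgene and studied under pathway activation in both groups. The input libraries, cells without a FLAG transgene, read counts and the sequence of the mm9 build were not used here. Library depth is therefore unknown, genes and GLI binding sequences at the regions were not analysed, and regions are named by their mm9 coordinates, counted from 1.

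The 598 regions took up a small part of every list. They held 609 of 42634 peaks in GLI1 replicate 1 (1.43%) and 624 of 55741 in GLI1 replicate 2 (1.12%). In the GLI2 lists they held 601 of 26511 peaks in replicate 1 (2.27%) and 625 of 48921 in replicate 2 (1.28%). The number changed with the lists required and the peaks kept. Leaving out a GLI1 list raised it to 1705 (replicate 1) or 1375 (replicate 2), and leaving out a GLI2 list raised it to 1759 or 1026. A minimum score of 50 in the replicate 1 lists left 342 regions, and lists of equal length left 262. Asking for fewer lists loosens the rule and removing peaks tightens it, so the direction of these changes follows from construction.

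Just outside the rule lay 3532 regions with a peak in exactly 3 lists. The list without a peak was GLI2 replicate 1, the shortest, in 1164 of them and GLI1 replicate 1 in 1125, against 790 for GLI1 replicate 2 and 453 for GLI2 replicate 2. In 5 of these regions a peak of the missing list touched the region without overlapping it, and in 124 (3.51%) it lay within 1000 bp. The median distance to the nearest peak of the missing list ran from 12.6 kb for GLI1 replicate 2 to 27.1 kb for GLI2 replicate 1. Just inside the rule lay 66 regions that were chains, in which no base was covered by all 4 lists although each peak met another. Such chains were wide, with a median of 3800 bp against 1800 bp for the 532 regions with a common stretch. Peaks that share no common base must spread over a longer stretch, so this difference follows in part from the split.

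Where the lists met, they mostly met at the same place, which follows in part from a rule that asks for overlap. Such positions were not measured in regions with fewer lists. In 585 regions (97.8%) each list contributed a single peak. A stretch covered by all 4 lists existed in 532 regions (89.0%), and in 465 (77.8%) it was at least 1000 bp long, the width of the narrowest peak in the files. In the 585 regions with single peaks, the centres of GLI2 replicate 1 and GLI2 replicate 2 lay within 200 bp of each other in 454 (77.6%). Those of GLI1 replicate 1 and GLI1 replicate 2 did so in 425 (72.6%). Between factors the numbers were of the same order, with 446 (76.2%) for both replicate 2 lists, 386 (66.0%) for both replicate 1 lists, and 397 and 404 for the pairs that shared neither factor nor replicate number. Peak edges lie on a grid of 200 bp, so these distances are coarse. Widths of the peaks followed each other only weakly, with Spearman's rho across the 585 regions from 0.133 to 0.280 over the 6 pairs of lists.

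In 17 regions all 4 lists gave the very same start and end. Their widths ran from 1000 to 2200 bp, with a median of 1800 bp, equal to that of all 598 regions. They lay on 13 chromosomes. Their median replicate 1 scores were 89.8 for GLI1 and 99.1 for GLI2, above the 52.6 and 63.5 of all 598 regions. The score is the authors' own value per peak, of unknown unit, and a region's score is that of its highest peak in the list. The examples that follow show the range. Chromosome 13 from 55071401 to 55073600 carried the highest scores of both replicate 1 lists, 1608 for GLI1 and a value given as infinite for GLI2. Chromosome 18 from 25658201 to 25660200 had scores of 518 and 539. Chromosome 2 from 57481201 to 57483000 had 109 and 127, and chromosome 6 from 78701401 to 78702400, the narrowest of all regions, only 48.5 and 51.6.

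**Figure D1:**
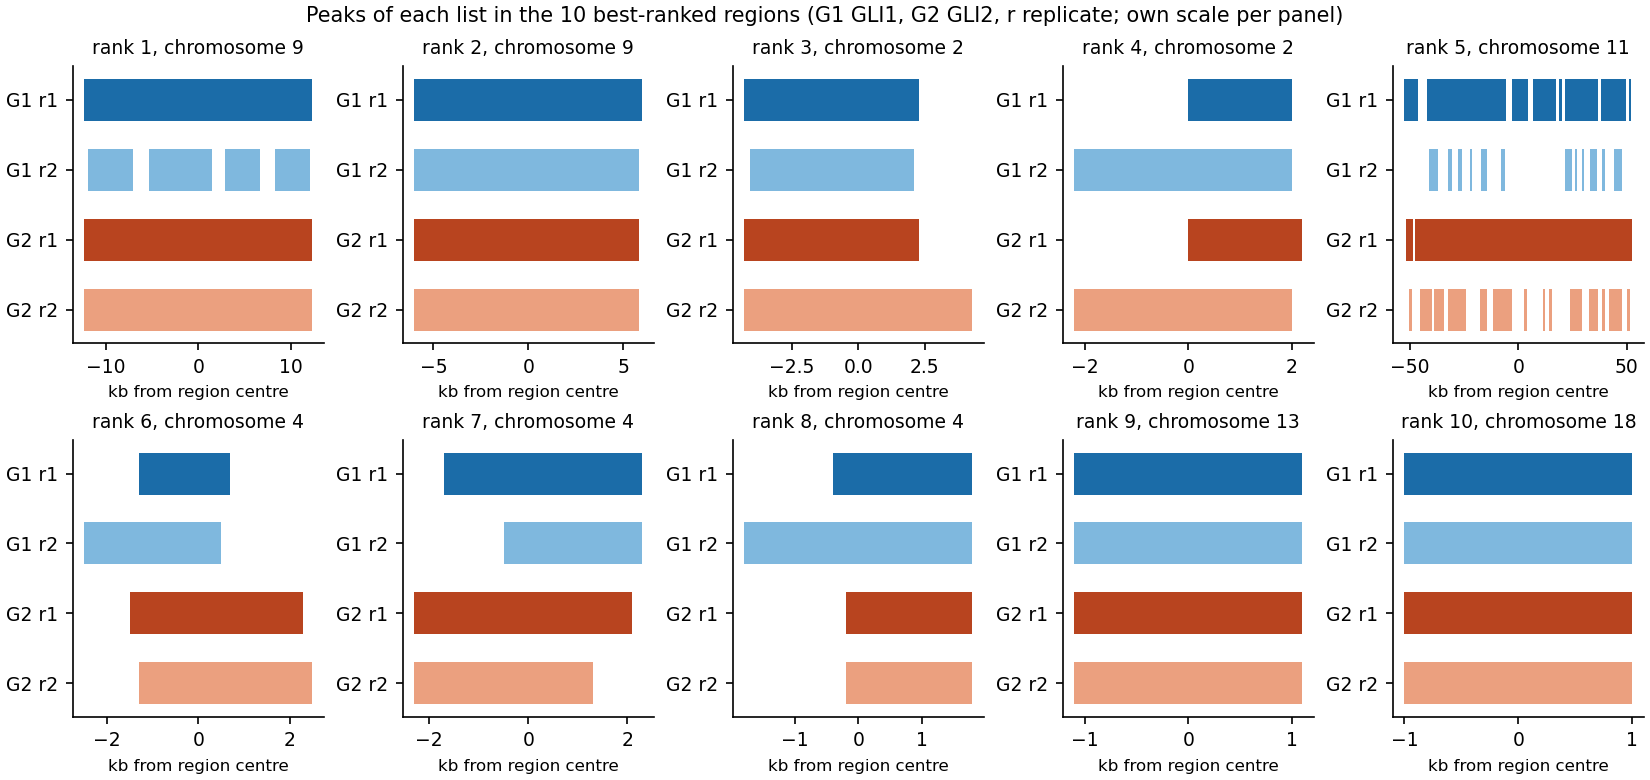
Extent of the peaks of each list in the 10 regions ranked best by the worst of their 4 within-list ranks, as distance in kb from the centre of the region, with a scale of its own in each panel. On chromosomes 13 and 18 (ranks 9 and 10) all 4 bars coincide, whereas rank 5 on chromosome 11 is covered in pieces by 3 of the lists and by 2 peaks of GLI2 replicate 1.

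The regions differed from those in exactly 3 lists in their wider members, not in the median. Their median width was 1800 bp (quartiles 1600 and 3200 bp), equal to that of regions in exactly 3 lists (quartiles 1600 and 2000 bp) and above the 1600 and 1200 bp of regions in 2 lists and 1. Widths fell into separate ranges: 405 regions (67.7%) were at most 2000 bp wide, 38 were between 2200 and 3000 bp, and 155 (25.9%) were 3200 bp or more. Regions of at least 3600 bp numbered 120 (20.1%), against 1.56% of all union regions and 9.54% of those in exactly 3 lists. The width of a union region grows with the number of peaks joined. Greater width with more lists thus follows in part from the rule. In 110 of the 155 wide regions the peaks of a single list reached 3000 bp, and in 6 those of all 4 lists did. Breadth was therefore seldom shared. GLI2 replicate 2 reached 3000 bp in 67 of the wide regions, GLI1 replicate 2 in 61, GLI1 replicate 1 in 55 and GLI2 replicate 1 in 33.

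**Figure D2:**
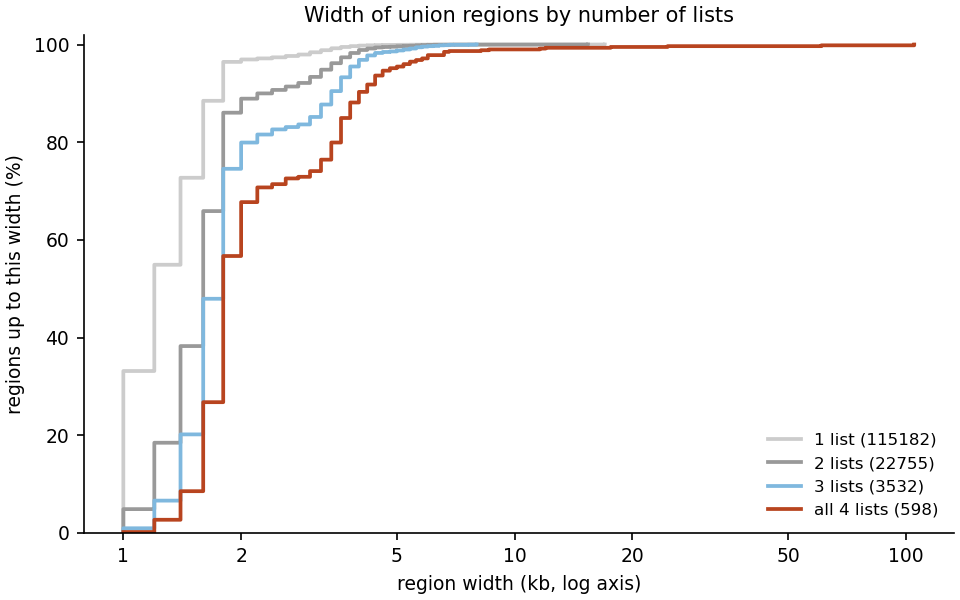
Cumulative share of union regions (vertical axis, %) up to a given width (horizontal axis, kb, log scale), for regions with a peak in 1, 2, 3 or all 4 lists. The line for all 4 lists lies lowest, with 67.7% of its 598 regions at or under 2000 bp. Joining peaks of more lists can only widen a region.

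The widest regions differed in how the lists filled them. A pair of neighbours on chromosome 11, from 19758401 to 19819200 and from 19826001 to 19931000, was separated by 6.8 kb, held 59 peaks and made up 10.1% of all bases in the 598 regions. In the second, 105 kb wide, peaks of GLI2 replicate 1 covered 103000 bp in 2 peaks and those of GLI1 replicate 1 covered 89200 bp in 8. GLI2 replicate 2 covered 54400 bp there in 14 peaks and GLI1 replicate 2 covered 27000 bp in 12. Scores were moderate, at 85.8 for GLI1 and 106 for GLI2. The longest stretch covered by all 4 lists was 4000 bp. Nothing else among the 598 regions lay near this pair, the next ones being 2877 kb before and 13302 kb after it. A region of chromosome 5 from 136381001 to 136398600 was likewise broad in pieces, with 17600 bp in GLI2 replicate 1, 11200 bp in GLI1 replicate 1, 6400 bp in GLI1 replicate 2 and 5000 bp in GLI2 replicate 2. On chromosome 19 from 6379201 to 6390800 the breadth came from 1 list, with a peak of 11600 bp in GLI1 replicate 2 beside 1400, 3400 and 1400 bp in GLI1 replicate 1, GLI2 replicate 1 and GLI2 replicate 2. Chromosome 16 from 24582801 to 24591000 was wide in GLI1 replicate 1 alone, at 8200 bp against 1600 to 2000 bp in the others.

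Most of the 598 regions had ordinary scores, and a few had extreme ones. GLI1 replicate 1 scores ran from 40.1 to 1608 with a median of 52.6, where the whole list had a median of 46.9. GLI2 replicate 1 scores ran from 50.1 to 1208, apart from the infinite one, with a median of 63.5 beside 58.8 for the whole list. The regions lay at a median percentile of 26.3 in the GLI1 list and 27.9 in the GLI2 list, counted from the highest score. For regions in exactly 3 lists the percentiles were 40.4 and 41.2, and for regions in a single list 53.1 and 54.2. In the top 10% lay 179 regions (29.9%) for GLI1 and 163 (27.3%) for GLI2. The shares were 15.4% and 16.6% for regions in exactly 3 lists, and 9.99% and 10.0% for all union regions with a peak in the list. Even so, 173 regions (28.9%) came from the lower 50% of the GLI1 list and 190 (31.8%) from the lower 50% of the GLI2 list, and 154 scored below 60 in both.

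Across the 597 regions with finite scores, GLI1 and GLI2 replicate 1 scores had a Pearson correlation of 0.946 but a Spearman correlation of 0.225. Without the regions in the top 0.1% of both lists, 582 regions remained and the values were 0.487 and 0.164. Those regions had been picked for high scores in both lists, so a lower value without them follows in part from the choice. The libraries share a cell line and a treatment. GLI2 scored higher in 460 regions and GLI1 in 137, with a median GLI2 to GLI1 ratio of 1.21. The lists began at different scores, just above 50 for GLI2 and 40 for GLI1, so the direction of that ratio cannot be told apart from the cutoffs.

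Most of the large differences in score between the factors were on the side of GLI2, the list with the higher cutoff. A ratio of scores of unknown unit is not a ratio of binding. The GLI2 score was more than 2 times the GLI1 score in 34 regions, and the GLI1 score more than 2 times the GLI2 score in 1. That single region, chromosome 10 from 25801201 to 25803000, scored 112 for GLI1 and 52.0 for GLI2. GLI1 was also higher on chromosome 8 from 121781601 to 121783600, with 351 against 198, and on chromosome 12 from 53996001 to 53998200, with 96.5 against 55.2. GLI2 was higher on chromosome 10 from 10798801 to 10802400, with 234 against 59.4 for GLI1. It was also higher on chromosome 7 from 32238401 to 32243000, with 163 against 43.0, and on chromosome 8 from 24082401 to 24084200, with 161 against 48.3. In the chromosome 7 region and the GLI2-high region of chromosome 10 no base was covered by all 4 lists, so both scores need not belong to the same place. The replicate 2 lists carried no usable score, and none of these differences has a replicate check.

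**Figure D3:**
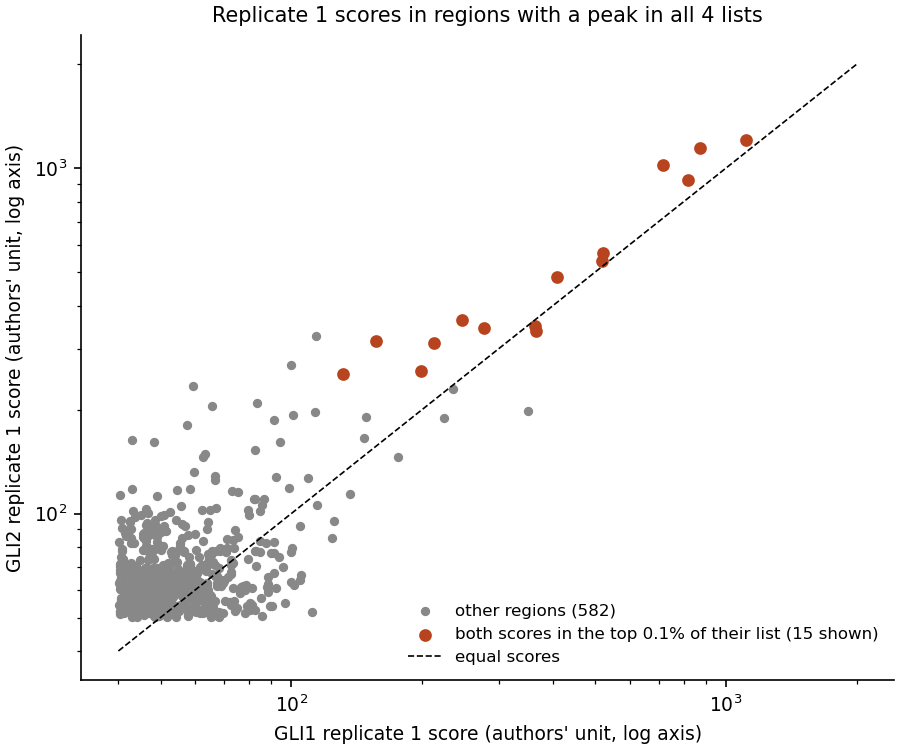
Replicate 1 scores of GLI1 (horizontal) and GLI2 (vertical), both in the authors' unit on log axes, with 1 point per region and the region of infinite GLI2 score left out. The 15 red points, high in both lists, lie along or above the line of equal scores, while the 582 others form a cloud above 40 for GLI1 and 50 for GLI2.

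Some of the highest-scoring places were common to both factors. In all, 16 union regions (0.0113%) had GLI1 and GLI2 replicate 1 scores that were both in the top 0.1% of their lists, and all 16 had a peak in all 4 lists. They were 38.1% of the 42 regions in the top 0.1% of GLI1 and 61.5% of the 26 in that of GLI2. The GLI1 list is longer, so at most 26 of the 42 could be in the top of both. The 38.1% and 61.5% thus do not compare the factors. Of the 42 and the 26, 24 and 18 had a peak in all 4 lists. Scores of the 16 started at 131 for GLI1 and 253 for GLI2. A further 2 regions, the pair on chromosome 11, held 3 or more peaks of a list without such scores, which made 18 regions with high scores in both lists or with stacked peaks. With peaks set to 500 bp around their centres, or with the widest 1% of each list removed, 10 such regions were left. Without GLI2 replicate 1 there were 29 and without GLI1 replicate 1 there were 20, where a single replicate 1 score decided in each case.

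These 16 regions differed in shape. Chromosome 9 from 2999401 to 3011400 and from 3014401 to 3039000, and chromosome 2 from 98501601 to 98510200, were long blocks with nearly the same extent in each list. The first measured 12000 bp in GLI1 replicate 1 and 11800 bp in each of the others. The second measured 24600 bp in 3 lists and 19200 bp, in 4 pieces, in GLI1 replicate 2. That of chromosome 2 measured 6600 bp in both replicate 1 lists, 6200 bp in GLI1 replicate 2 and 8600 bp in GLI2 replicate 2. These starts of chromosome 9 and this part of chromosome 2 are known as places where mouse ChIP-seq libraries of many kinds gather reads, over satellite-like sequence. Whether the tagged proteins take part in the signal was not tested.

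The other 13 of the 16 had a common stretch of 1800 to 2200 bp, a length found in 13 of the remaining 582 regions. Among them, chromosome 12 from 3106801 to 3111000 scored 1111 for GLI1 and 1208 for GLI2. Chromosome 6 from 103598201 to 103600200 scored 869 and 1145, and chromosome 9 from 35112001 to 35114000 scored 818 and 922. In these 3 the replicate 1 peaks of both factors were 2000 bp wide, and GLI1 replicate 2 peaks 1800 bp. Chromosome 2 from 33943001 to 33947400 scored 716 and 1021, with peaks of 2000 and 2200 bp in the replicate 1 lists and of 4200 bp in both replicate 2 lists. On chromosome 4, the region from 155231201 to 155234800 scored 366 and 337, and that from 139812401 to 139817000 scored 131 and 253, the lowest of the 16 in both lists. These common stretches were much shorter than the long blocks, and 12 of the 13 lay over 1 Mb from a chromosome start. The long block of chromosome 2 also lay far from its chromosome start, at 95448 kb, so distance does not set the 13 apart. The long blocks and the regions of chromosomes 12, 6 and 9 named first here also had scores above 0 in both replicate 2 lists, as described below. Sequence was not used here, so whether these 13 regions hold repeats or GLI sites was not tested.

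Regions near the centromere end were few. A distance of 1 Mb from the lowest peak of a chromosome held 9 of the 598 regions (1.51%, exact 95% interval 0.690 to 2.84%), against 0.783% of all union regions. At 1 Mb the interval includes the share of all regions. Within 0.5 Mb there were 7 regions (1.17%, 0.472 to 2.40%), an interval above the 0.403% of all union regions, while the last 0.5 Mb of the chromosomes held 3. The 7 included both blocks of chromosome 9, 3 kb apart, and a pair on chromosome 11, 13.6 kb apart. The interval counts such neighbours as independent and may be too narrow, so the excess was not tested by it. The share within 1 Mb was 0.938% without GLI1 replicate 1 and 2.67% with lists of equal length. The 9 lay on 6 chromosomes and were of unlike kinds. Both blocks of chromosome 9 and the region of chromosome 12 described above belonged to them. On chromosome 11, from 3038001 to 3040000 and from 3053601 to 3056600, a pair 13.6 kb apart scored 46.5 and 52.7 for GLI1 but 94.2 and 101 for GLI2. The remaining 4 began at 3016801 and 3791801 on chromosome 4, 3453001 on chromosome 6 and 3594801 on chromosome 19. Their GLI1 scores were between 42.1 and 51.7, and their GLI2 scores were 50.1, 84.8, 58.8 and 89.6 in that order. The far end of the chromosomes held a similar number, with 6 regions (1.00%) in the last 1 Mb against 0.811% of all union regions.

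Over whole chromosomes, more of the regions lay towards the end away from the centromere than of all union regions. The last 20% of the length of the chromosomes held 173 regions (28.9%, exact 95% interval 25.3 to 32.7%), against 22.8% of all union regions and 26.1% of regions in exactly 3 lists. The earlier stretches of 20% held 110, 112, 95 and 108, in order from the centromere end. The interval includes the share of regions in exactly 3 lists. With the better-ranked 50% of each list (21.3 to 35.6%) and with lists of equal length (21.5 to 32.5%) it also included the 22.8% of all regions. The share in this last stretch exceeded that of all regions on 14 of 20 chromosomes. It was highest on chromosome 8, where 14 of 30 regions lay there (46.7% against 25.5% of all regions), and on chromosome 4, with 16 of 35 (45.7% against 28.2%). On chromosome X none of 10 lay there, and on chromosome 9 it was 1 of 13. The scores of these regions were close to those of all 598: 4 of the 173 (2.31%) belonged to the 16 regions high in both lists that are described above, against 2.68% of all 598, and their median GLI1 and GLI2 scores were 51.9 and 64.0 beside 52.6 and 63.5. Gene density, base composition and mappability along the chromosomes were not used here, and their part in this shift was not tested. This stretch was looked at after the positions had been seen.

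**Figure D4:**
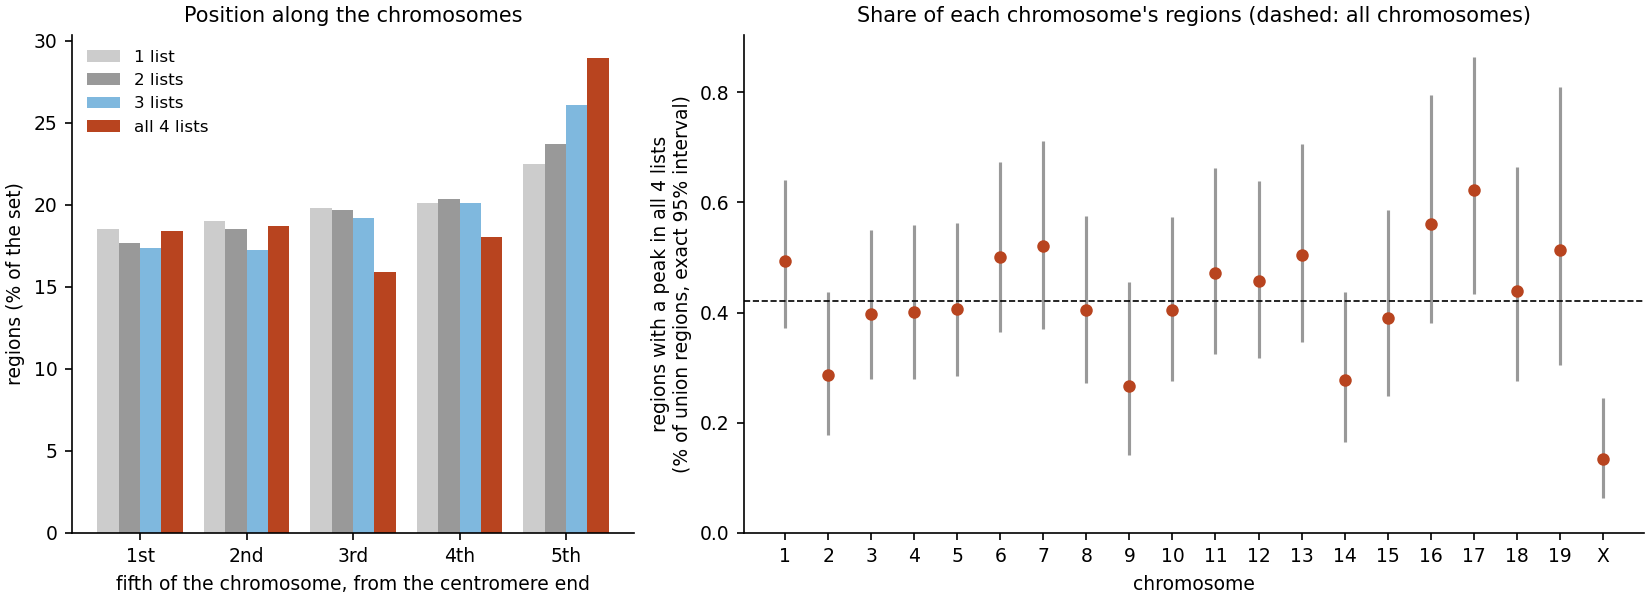
Left, share of regions (%) in each 20% of the length of the chromosomes, counted from the centromere end, for regions in 1, 2, 3 or all 4 lists: the last stretch holds 28.9% of regions in all 4. Right, regions in all 4 lists as % of the union regions of each chromosome, with exact 95% intervals and a dashed line at 0.421%: of the 20 chromosomes drawn, which leave out Y, chromosome X lies lowest, at 0.134%.

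Chromosomes gave unequal shares of their union regions. Chromosome Y had 15 union regions, none with a peak in all 4 lists, and is left out of what follows. Chromosome 17 had the highest, with 35 of 5625 (0.622%, exact 95% interval 0.434 to 0.864%), followed by chromosome 16 with 31 of 5532 (0.560%). Chromosome X had the lowest, with 10 of 7484 (0.134%, 0.0641 to 0.246%), so that it held 1.67% of the 598 regions against 5.27% of all union regions. A low share of X was also seen in regions with fewer lists, at 3.00% of those in exactly 3 and 4.63% of those in 2, against 5.48% of those in a single list. Of the union regions of X, 1.42% were in exactly 3 lists, a share above that of chromosome 2 (1.24%) and below that of chromosome 9. In the share with all 4 lists, chromosomes 9, 14 and 2 followed with 0.266, 0.277 and 0.286%, each with an interval that reached above 0.421%. Without GLI1 replicate 1 the share of X was 3.52%, and with peaks set to 500 bp it was 0.932%. In the 10 regions of X, GLI1 scores ran from 41.1 to 63.4 and GLI2 scores from 55.1 to 79.1, outside the top 1% of either list. In 4 of the 10 no base was covered by all 4 lists. The X region with the best rank, from 61265201 to 61267000, had scores of 55.5 and 63.0 and peaks of 1200, 1800, 1800 and 1400 bp in the lists of GLI1 and then GLI2, replicate 1 before replicate 2.

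The regions lay far apart, which follows in part from their small number, and 11 windows of 1 Mb held 3 or more. The median distance to the nearest other of the 598 was 1103 kb, and 281 regions (47.0%) had another within 1 Mb. For the more numerous regions in exactly 3 lists these values were 197 kb and 92.8%, and for all union regions 5.6 kb and 100%. Of 2583 windows of 1 Mb with any union region, 436 held a single one of the 598, 62 held 2, 6 held 3 and 5 held 4. The share with a neighbour follows the number of regions: without GLI2 replicate 1 it was 78.5% and without GLI1 replicate 1 76.5%, where 1759 and 1705 regions entered, and it was 26.7% with lists of equal length. The surroundings were only slightly richer in peaks than usual. Within 50 kb on either side, the 4 lists together had a median of 8 peaks beside the 598 regions and 7 beside all union regions. Regions in exactly 3 lists also had a median of 8.

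The 5 windows with 4 regions lay on 4 chromosomes and held none of the 16 regions high in both lists. On chromosome 17, where a pair of them lay, regions ran from 27282201 to 27607400 and from 30151601 to 30790000. The first of these held wide regions, from 3200 to 6000 bp, with GLI1 scores from 43.1 to 57.2 and GLI2 scores from 51.4 to 63.5. The last members there, from 27592201 to 27595400 and from 27602001 to 27607400, were 6.6 kb apart. In the second, regions of 1400 to 4200 bp had GLI1 scores from 46.0 to 59.97 and GLI2 scores from 62.2 to 87.0. The cluster of chromosome 1 ran from 75134601 to 75664800, that of chromosome 12 from 109041201 to 109692000 and that of chromosome 16 from 32273801 to 32876200. GLI1 scores reached 85.8, 55.4 and 74.4 in these clusters, and GLI2 scores 98.0, 118 and 54.4. On chromosome 16 the GLI2 scores ran from 51.7 to 54.4, all below the median of 58.8 of the GLI2 replicate 1 list. On chromosome 12 the highest GLI2 score, from 109157401 to 109159200, went with a GLI1 score of 43.0. The windows held 75 to 112 union regions each, above the median of 54 per window.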

How the data were processed

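Anti-FLAG ChIP-seq libraries were grouped by their titles into GLI1 and GLI2 ChIP, 2 replicates each. The submitters' processing notes name CASAVA 1.7, BWA and the build mm9. Each library had its own peak list, for which the labels name a cutoff (GLI1 1e-4, GLI2 1e-5) and a setting s (50 in replicate 1, 20 in replicate 2). The sources used here do not give the caller. The score per peak is the authors' deposited value of unknown unit. Its replicate 1 values began just above 40 for GLI1 and 50 for GLI2, so it may be on a log scale of the cutoff. In replicate 2 it was 0 for nearly all peaks, so these peaks were ranked by width and replicate 1 peaks by score. Ranks are percentiles, with ties averaged.

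Peaks overlapping by at least 1 bp were joined. Chromosome start and end are the lowest and highest peak position of any list. The share in the last 20% of a chromosome is by region centre. Intervals are exact (Clopper-Pearson, 95%), cover counting error only and treat regions as independent, which neighbours may not be. No test was made, because the rule used the peaks themselves.

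Regions named were the 10 best by the worst of 4 ranks, the 10 widest and 5 narrowest, those on X, those within 1 Mb of a chromosome start, those of the densest 1 Mb windows (5 tied in place of 3), and the 3 largest score ratios each way. Some of each are printed. Examples among regions with equal edges or extreme scores were picked after their values were seen. Members, lists and rules were chosen with earlier results of these data known. The planned gene lists, starts and GLI motif needed the mm9 build and were not run. The code was tested on simulated lists. Python 3.11.15, numpy 2.4.6, pandas 2.3.3, scipy 1.17.1 and matplotlib 3.10.9 were used.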

Additional observations from a re-analysis of the deposited data

Results flagged for a closer look

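The score of the replicate 2 lists, which entered no comparison, was above 0 for a few peaks. In GLI1 replicate 2, 11 of 19 such peaks lay in regions with a peak in all 4 lists, and in GLI2 replicate 2 it was 8 of 23. These regions held 1.12% and 1.28% of all peaks of these lists. The peaks fell in the same 8 regions in both lists. These were the 2 blocks at the start of chromosome 9, chromosome 2 from 98501601 to 98510200 (0.058 and 0.051, the highest of their lists), and chromosome 9 from 35112001 to 35114000 (0.016 and 0.014). The others were chromosome 6 from 103598201 to 103600200, chromosome 12 from 3106801 to 3111000 and the pair within 1 Mb of the start of chromosome 11. Of the 8 regions, 6 were among the 16 with replicate 1 scores in the top 0.1% of both factors and 5 lay within 1 Mb of a chromosome start. Outside the 598 regions, 8 and 15 peaks had such a score, in regions of 1 to 3 lists. Some lay on chromosome Y, in a line described as female, and others on chromosome 11 between 3047801 and 3098400. Chromosome 13 from 58278201 to 58280000 and chromosome 15 from 99565401 to 99567200 had such a score in both lists. Scores above 0 in both lists were thus not particular to the 598 regions. The sources used here do not say what this score measures.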

How the results depend on the processing

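In place of 598 regions there were 164 when each list was cut to its better-ranked 50%. There were 342 with a score of at least 50, 262 with equal lists and 1026 to 1759 without a list. The direction of these changes follows from construction, since removing peaks tightens the rule and leaving out a list loosens it. The median width was 2000 bp with the better-ranked 50% and with equal lists, 700 bp with peaks set to 500 bp, and 1600 to 1800 bp without a list. The share with a base common to all lists was 94.2% with peaks set to 500 bp, 80.6% with peaks up to 500 bp apart joined, 93.9% in the better-ranked 50%, 93.1% with equal lists, 92.5% without the widest 1%, 92.9 to 95.1% without a list, and 100% by construction when a common run of 500 bp was required. The median over regions of the mean replicate 1 percentile, 35.2, was 12.3, 20.1 and 23.8 with the better-ranked 50%, a score of at least 50 and equal lists, and 35.3 to 40.8 without a list. The values 12.3, 20.1 and 23.8 come from settings that removed low-scoring replicate 1 peaks, so their fall follows from construction. The share with a neighbour within 1 Mb was 33.6% with peaks set to 500 bp, 18.3% in the better-ranked 50%, 26.6% at a score of at least 50, 26.7% with equal lists, 41.5% without the widest 1% and 62.2 to 78.5% without a list. It was 7.36% at 0.1 Mb and 89.1% at 5 Mb. Regions high in both lists or with stacked peaks numbered 10 with peaks set to 500 bp and 10 without the widest 1%, and 18 to 29 without a list. The share on X was 1.45 to 3.52% without a list, and that near chromosome starts 0.938 to 1.31%. The share in the last 20% of chromosomes, whose alternatives were added after seeing the data, ran from 25.9 to 28.8%, with intervals that included the 22.8% of all union regions for the better-ranked 50% and for equal lists. The 700 bp follows from peaks set to 500 bp, and the 80.6% in part from joining peaks that do not overlap. The share with a neighbour follows in part from the number of regions and from the distance allowed. Except where a construction is named, the cause was not tested. No paired analysis was possible because regions are combined by presence, with no fit. Gene and motif alternatives were not run, for want of an mm9 reference. How far depth limits these values cannot be stated, since it is unknown.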
